A study of Mus musculus with 2 samples.

Results

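Spliceosomal small nuclear RNA (snRNA) loci were examined for Mbnl2 HITS-CLIP tags in mouse quadriceps muscle. The members are all 1423 genes of type snRNA among the 37310 genes of the mm9 GENCODE annotation (release M1), grouped by the U type in the gene name. A tag was counted when it overlapped a locus on the strand of that locus. In HITS-CLIP, UV light links a protein to RNA in place, RNase shortens the RNA, and the pieces that come down with the protein on immunoprecipitation are sequenced as tags. Quadriceps of WT and Mbnl1-/- (Mbnl1 KO) mice at 15 to 16 weeks of age were crosslinked after freezing, treated with RNase A at 38.6 or 0.0386 U/ml, and precipitated with the Mbnl2 antibody mAb 3B4. The study asked how the RNA contacts of Mbnl2 differ when its paralogue Mbnl1 is missing. The labels give both groups the strain C57BL/6, whereas the methods name a C57BL/129 background for compound knockouts. The Mbnl1 allele is named for a deletion of exon 3 and is carried in every cell, not in muscle fibres alone. The Mbnl2 gene is intact in both groups, but the paper reports more Mbnl2 protein in Mbnl1 KO, above all in skeletal muscle.

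Tags from 3 mice were merged into 1 table per genotype, which hides the variation among animals, and the genotypes were therefore compared without a test. The tables held 343554 WT and 476543 Mbnl1 KO tags, each with the number of reads collapsed into it, from 5176203 and 50329234 reads. Tag numbers are given raw or per 1000000 tags of the table, and an Mbnl1 KO/WT ratio is the quotient of the scaled numbers. Intervals are exact 95% intervals (Poisson for levels, Clopper-Pearson for shares and ratios). They cover counting error only and compare these libraries, not the genotypes. A count of 0 allows 3 tags, which is 8.73 per 1000000 in WT and 6.30 in Mbnl1 KO. Tags that were at least 70% one base of the reference made up 44.0% of the WT and 17.0% of the Mbnl1 KO tags on assembled chromosomes, and this difference enters each scaled ratio. Muscle fibre genes carried many tags in both tables, from 32 WT and 142 Mbnl1 KO tags at Ckm to 424 and 1519 at Ttn. All 6 fibre genes stood higher in Mbnl1 KO, with ratios from 1.93 (1.47 to 2.57) at Acta1 to 3.20 (2.17 to 4.85) at Ckm, a range that holds the U1 ratio given below. Snap25, Ptprc, Alb and Adipoq, which mark neurons, leukocytes, liver and fat, had at most 12 tags in a table. Of these, Adipoq, the fat marker, had 1 WT tag against 12 in Mbnl1 KO (ratio 8.65, 1.28 to 370), and the part of fat tissue in the ratios below was not tested. The coordinates of the Mbnl1 deletion were not at hand, and a stand-in, the exon with the start codon, had 5 WT and 2 Mbnl1 KO tags, too few to check the genotype.

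The spliceosome removes introns from pre-mRNA and is built from RNA-protein particles, each around 1 or a pair of snRNAs. U1 pairs with the 5′ splice site and U2 with the branch point. U4 brings U6 in a paired, inactive form together with U5, and U6 is then released, pairs with the 5′ splice site through its ACAGAGA box and forms the catalytic core with U2. U11, U12, U4atac and U6atac serve the minor class of introns, and U7 processes histone mRNA 3′ ends and is not part of the spliceosome. U1, U2, U4 and U5 carry an Sm site, a short U-rich stretch on which a ring of Sm proteins is assembled. Mammalian genomes hold many copies and pseudogenes of these RNAs. Muscleblind-like proteins regulate alternative splicing by binding pre-mRNA at motifs with a GC step between pyrimidines. Whether tags at an snRNA come from direct contact with the RNA or from its particle cannot be told apart here.

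The U1 and U2 reference sequences on which tags were placed are shown first, because the tags are described by their position within the RNA. Each is the mm9 sequence of 1 locus on its own strand, with T in place of U, and was chosen as the most frequent identical copy of its type. The capitals mark the stretch ACTTACC that pairs with the 5′ splice site and the Sm site TTTGTGG in U1, and the branch-point pairing stretch GTAGTA and the Sm site TTTTTGG in U2.
U1 (chr12:55811295-55811458, plus strand, 164 nt): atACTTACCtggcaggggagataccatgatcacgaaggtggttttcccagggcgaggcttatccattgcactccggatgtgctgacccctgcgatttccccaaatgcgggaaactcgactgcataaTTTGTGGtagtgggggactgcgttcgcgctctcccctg
U2 (chr11:101519552-101519742, plus strand, 191 nt): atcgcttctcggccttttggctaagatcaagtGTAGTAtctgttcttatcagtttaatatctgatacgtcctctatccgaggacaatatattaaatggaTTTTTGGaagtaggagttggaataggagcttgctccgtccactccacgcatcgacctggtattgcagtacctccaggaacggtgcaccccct
The U1 sequence stands identically at 7 loci and the U2 sequence at 4, and the most frequent U6 copy at 43. The ACAGAGA box was found on the sense strand of 60.3% of the 936 U6 loci (40.3% of all snRNA loci), ACTTACC in 31.1% of U1 loci (4.57% of all) and GTAGTA in 56.9% of U2 loci (3.65% of all). The Sm stretches TTTGTGG and TTTTTGG were found in 38.8% of U1 loci (6.39% of all) and 41.2% of U2 loci (2.81% of all). These shares describe how many annotated copies keep the letters of the functional RNA.

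Mbnl2 tags lay over snRNA in both genotypes, almost entirely on the sense strand and mostly over U6. The 1423 loci held 305 WT tags, which is 888 per 1000000 (791 to 993), and 636 Mbnl1 KO tags, which is 1335 per 1000000 (1233 to 1442). The ratio was 1.5 (1.31 to 1.73). These tags made up 0.0888% of the WT table (0.0791 to 0.0993) and 0.133% of the Mbnl1 KO table (0.123 to 0.144). The excess over WT did not hold under every counting. The ratio was 1.03 (0.895 to 1.18) with the single-base tags left out, 0.942 with tags of at least 2 reads and 0.551 when reads were summed, but 2.09 with raw tags and 5.69 (4.02 to 8.26) with tags of at least 30 nt. For all 22380 protein-coding genes the ratio was 1.61 (1.60 to 1.63), for 1552 snoRNA loci, whose RNAs guide the modification of other RNAs, 2.0 (1.65 to 2.44), and for 1577 miRNA loci 2.43 (1.98 to 3.00). These class ratios are from the main counting only, in which the snRNA interval overlapped that of the snoRNA loci and lay below that of the miRNA loci. RNA and protein levels were not analysed here, so more Mbnl2 protein, more Mbnl2 binding, more snRNA and more cells that carry it cannot be told apart.

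Tags stood far above their surroundings. In WT, snRNA loci held 1.92 raw tags per kb against 0.0749 in the 500 nt on each side on the same strand, a quotient of 25.6 (20.5 to 32.2). In Mbnl1 KO, they held 4.00 tags per kb against 0.0763, a quotient of 52.4 (42.7 to 64.9). Scaled to 1000000 tags, the flanks held 0.218 tags per kb in WT and 0.160 in Mbnl1 KO, and the loci 5.58 and 8.38. On the antisense strand of the loci, 3 WT and 6 Mbnl1 KO tags were found, which is 0.974% (0.201 to 2.82) and 0.935% (0.344 to 2.02) of the tags on both strands. The antisense share was 1.23% to 5.26% at snoRNA loci, 9.63% to 10.4% at miRNA loci and 27.3% to 43.9% at protein-coding genes. Most loci, 1154, lay outside other genes on their strand and held 249 WT and 508 Mbnl1 KO tags. A further 257 (18.1%) lay in an intron of another gene and held 56 and 122, and 12 overlapped an exon and held 0 and 6. No tag overlapped more than 1 snRNA locus.

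Most annotated copies carried no tag. At least 1 tag was found at 238 loci in WT and 310 in Mbnl1 KO, and at 402 (28.3%) in either table. Of these, 146 loci had a tag in both and 1021 loci of the annotation had none. With both tables pooled, 169 loci had 1 tag, 102 had 2, 69 had 3 and 25 had 4. The most tags at any locus were 12, at 3 loci. Even the functional sequence was covered thinly at each place where it stands. The 43 identical U6 loci held 29 WT and 64 Mbnl1 KO tags, with 0 to 2 per locus in WT and 0 to 4 in Mbnl1 KO and a median of 1.00 in both. The 7 identical U1 loci held 11 and 48 tags, with 1 to 3 per locus in WT and 4 to 11 in Mbnl1 KO. The 4 identical U2 loci held 3 and 38 tags, with 0 to 2 per locus in WT and 9 to 10 in Mbnl1 KO. These are raw tags, and the Mbnl1 KO table is the larger. Identical copies are not independent members, because a tag from one matches the others equally well.

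**Figure D1:**
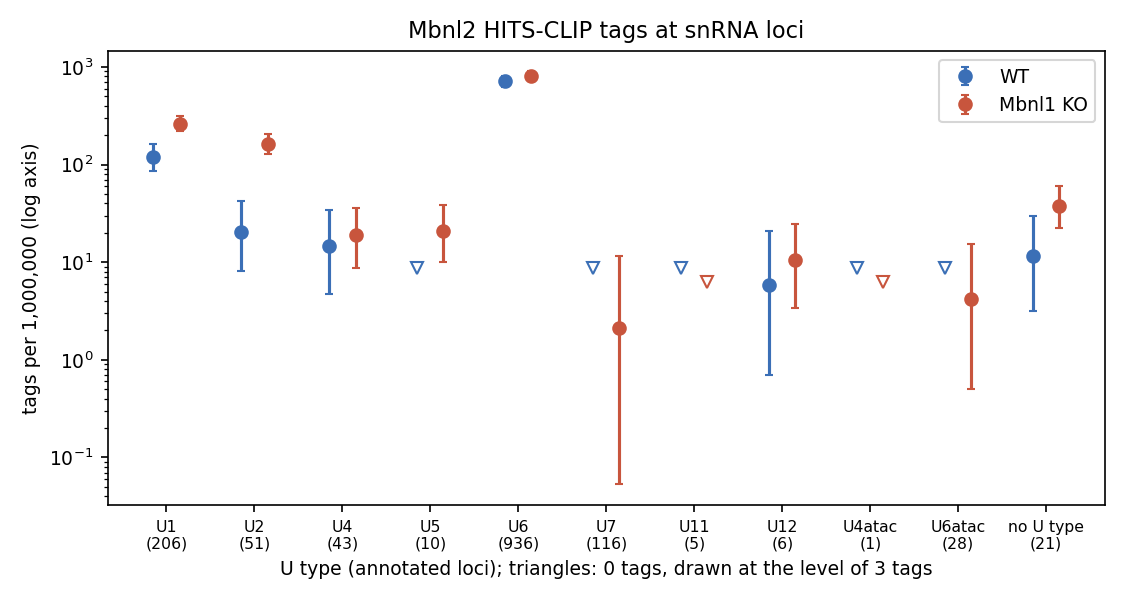
Mbnl2 tags per 1000000 tags of the table (log axis) at the loci of each U type, with 95% Poisson intervals, in WT (blue) and Mbnl1 KO (red). U6 is highest in both tables, U2 shows the widest gap between tables among the types with tags in both, and triangles stand at the level of 3 tags where 0 were found.

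U6 held most of the tags, at like levels in both tables. Its 936 loci had 246 WT tags, which is 716 per 1000000 (629 to 811), and 388 Mbnl1 KO tags, which is 814 per 1000000 (735 to 899), as the plot of levels by U type shows. The ratio was 1.14 (0.967 to 1.34), an interval that includes 1, and it was 1.21 (1.03 to 1.43) with positions counted once and 1.23 (1.04 to 1.45) with 5′ ends counted once. U6 took 80.7% of the snRNA tags in WT and 61.0% in Mbnl1 KO. Tags were found at 319 of its loci (34.1%), 193 in WT, 239 in Mbnl1 KO and 113 in both, with at most 6 at any locus. The direction of the U6 ratio depended on the counting, since it was 0.776 (0.659 to 0.915) with single-base tags left out, 0.599 with tags of at least 2 reads and 0.275 for summed reads, but 3.11 (1.90 to 5.28) for tags of at least 30 nt.

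U1 and U2 stood higher in the Mbnl1 KO table. The 206 U1 loci held 41 WT tags, 119 per 1000000 (85.6 to 162), and 125 Mbnl1 KO tags, 262 per 1000000 (218 to 313), with a ratio of 2.20 (1.53 to 3.21). The 51 U2 loci held 7 WT tags, 20.4 per 1000000 (8.19 to 42.0), and 78 Mbnl1 KO tags, 164 per 1000000 (129 to 204), for a ratio of 8.03 (3.72 to 20.6). In this counting the U2 interval lay above that of U1, and both lay above that of U6. The U1 interval held the ratio of 1.61 of protein-coding genes, while the U2 interval lay above it and the U6 interval below it. The order of U1 and U2 did not hold in every counting. It turned with tags of at least 30 nt (15.5 for U1 and 8.43 for U2), and the U1 and U2 intervals also overlapped with positions counted once, tags of at least 2 reads, tags wholly inside the locus, loci inside other genes left out, each sequence counted once or tags with 1 genome match. U2 took 2.30% of the snRNA tags in WT and 12.3% in Mbnl1 KO, and U1 13.4% and 19.7%. Tags were found at 45 U1 loci (21.8%) and 15 U2 loci (29.4%). Over the alternatives, the U2 ratio ranged from 2.88 to 35.2 and stayed above 1, and the U1 ratio ranged from 0.537 to 15.5. U1 fell below 1 in 1 setting, summed reads without the most-read Mbnl1 KO tag. The U1 interval included 1 when each tag sequence was counted once (1.90, 0.996 to 3.82), and the U1 and U2 intervals did so when only tags with 1 exact genome match were counted.

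**Figure D2:**
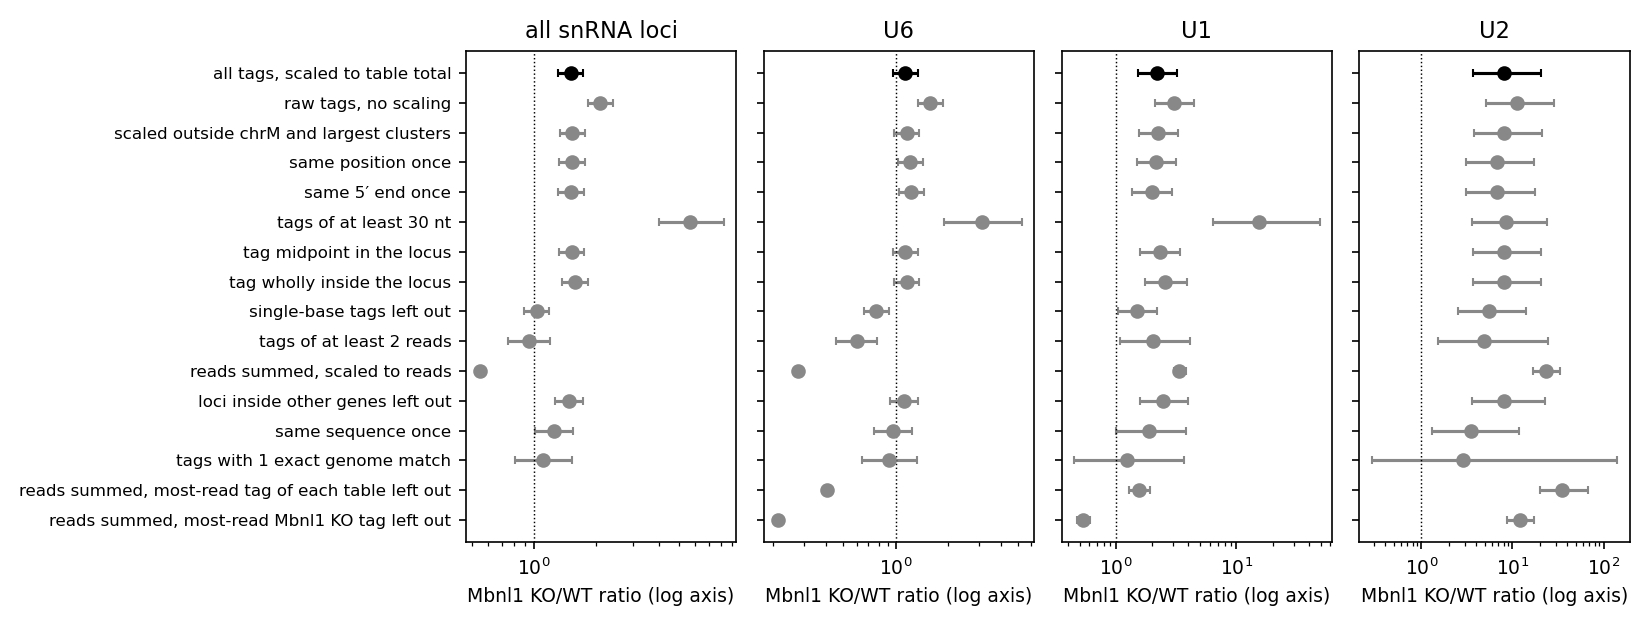
Mbnl1 KO/WT ratio (log axis) with its 95% interval for all snRNA loci, U6, U1 and U2 under each way of counting, with the values of the main counting in black and a dotted line at 1. The U2 points lie right of 1 under every counting shown and the U1 points under all but 1 (0.537), whereas those of all loci and of U6 fall on both sides.

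The remaining types carried few tags. U5, which holds the exons together in the spliceosome, had 0 WT tags and 10 Mbnl1 KO tags, 21.0 per 1000000 (10.1 to 38.6), at 6 of its 10 loci. Against a floor of 3 WT tags, U5 was at least 2.40-fold higher in Mbnl1 KO, and the exact interval of the ratio starts at 1.62. These 6 loci had 1 to 3 tags each. U4, the partner of U6, had 5 and 9 tags at 5 of 43 loci, for a ratio of 1.30 (0.391 to 4.93). U12, which recognises the branch point of minor introns, had 2 and 5 tags at 4 of 6 loci, for a ratio of 1.80 (0.295 to 18.9). U6atac had 0 and 2 tags at 28 loci, and U7 0 and 1 at 116 loci. No tag fell on the 5 U11 loci or the 1 U4atac locus. The floor of 3 tags is 8.73 per 1000000 in WT and 6.30 in Mbnl1 KO, and the exact intervals reach 10.7 and 7.74. Differences for U4, U12, U6atac and U7 were not detectable at this depth.

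A further 21 snRNA loci have no U type in their name and held 4 WT and 18 Mbnl1 KO tags, with a ratio of 3.24 (1.07 to 13.2). By the share of 12-nt words held in common with the named types, 10 were nearest to U6, 3 to U1, 3 to U2, 3 to U4 and 2 to U7. The 3 nearest to U2 held 3 of the WT and 15 of the Mbnl1 KO tags. They are AC120136.1, AC120136.2 and AC120136.3 on chromosome 1, and 93.3% to 100% of their words occurred in a U2 locus. With them counted as U2, the type had 54 loci, 10 WT and 93 Mbnl1 KO tags, and a ratio of 6.70 (3.49 to 14.4).

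Among single loci, 8 reached 10 tags with both tables pooled, and 7 of them stood at least 2-fold higher in Mbnl1 KO. Of all 7206 genes with that many tags, 39.6% stood at least 2-fold higher and 6.95% at least 2-fold lower. Nothing is read from this count, because the 8 loci had 0 to 3 WT tags and reached 10 through the Mbnl1 KO table. They are also copies of U1 and U2, 1 of them the unnamed AC120136.2, and share tag sequences.
The U1 locus ENSMUSG00000075943.1, whose sequence is printed above, had 1 WT and 11 Mbnl1 KO tags and thus a ratio of 7.93 (1.15 to 341). The U2 locus ENSMUSG00000065944.1, also printed above, had 2 and 10, for a ratio of 3.60 (0.768 to 33.8). The U2 locus ENSMUSG00000065820.1 (chr11:101466164-101466354, plus strand) had the same numbers. The U2 locus ENSMUSG00000065251.1 (chr11:101507054-101507244, minus strand) had 0 and 10 tags and was at least 2.40-fold higher in Mbnl1 KO against the same floor, with an interval from 1.62 upward. All 4 passed on their Mbnl1 KO tags.
AC120136.2 (chr1:72283520-72283710, plus strand, in an intron of D230017M19Rik) had 1 and 9 tags, as had the U2 locus ENSMUSG00000065767.1 (chr11:101488680-101488870, plus strand, in an intron of Rdm1) and the U1 locus ENSMUSG00000075789.1 (chr12:55820150-55820313, minus strand), each with a ratio of 6.49 (0.899 to 284). The U2 locus ENSMUSG00000064702.1 (chr11:101503062-101503252, plus strand) had 0 and 9 tags and was at least 2.16-fold higher against the floor, with an interval from 1.42 upward. The gap was smaller at 3 of the other U1 loci, with 3 and 7 tags at ENSMUSG00000075825.1 (chr12:55839446-55839609, minus strand), 3 and 6 at ENSMUSG00000075736.1 (chr12:55797769-55797932, plus strand), and 2 and 6 at ENSMUSG00000070246.1 (chr11:87236369-87236532, plus strand, in an intron of Tex14). Their ratios were 1.68, 1.44 and 2.16. The last of the 12 loci with the most tags, the U1 locus ENSMUSG00000075960.1 (chr12:55835542-55835705, minus strand), had 1 and 7 tags and a ratio of 5.05. No U6 locus was among the 12, since U6 tags were spread over many copies.

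Most of the U2 tags and many of the U1 tags lay in a few gene arrays, taken here as at least 3 loci of a type with gaps of at most 50000 nt. The U2 array at chr11:101466164-101519742 has 5 loci, all with tags, and held 5 WT and 48 Mbnl1 KO tags, 62.4% of all U2 tags, with a ratio of 6.92 (2.77 to 22.3). The U1 array at chr12:55797769-55839609 has 7 loci, all with tags, and held 12 and 49, 36.7% of U1 tags, for a ratio of 2.94 (1.54 to 6.08). The U1 array at chr3:96132348-96292816 has 8 loci, all with tags, and held 6 and 27, 19.9% of U1 tags, for a ratio of 3.24 (1.31 to 9.61). These 3 arrays were chosen for their tag numbers. The other 3 arrays with a tag, 1 of U5 and 2 of U6, had one at 5 of 10 loci.

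Many tags shared a sequence, and the most frequent sequences were listed at many places. The 305 WT tags had 138 distinct reference sequences and the 636 Mbnl1 KO tags had 227, which is 2.21 and 2.80 tags per sequence. Of these sequences, 69 in WT and 94 in Mbnl1 KO matched the genome exactly at 1 place. Over all tags that were not single-base, the tables held 1.15 and 1.37 tags per sequence. The sequence of 236 WT snRNA tags (77.4%) and 530 Mbnl1 KO tags (83.3%) matched the genome exactly at more than 1 place, as the plot of tags against genome matches shows. The placement of such reads by the aligner was not given in the sources used here. Counting only tags with 1 exact match left 69 WT and 106 Mbnl1 KO tags and a ratio of 1.11 (0.810 to 1.52). For U6 this ratio was 0.920 (0.643 to 1.32), from 58 and 74 tags, and for U1 it was 1.24 (0.449 to 3.71), from 7 and 12. Only 1 WT and 4 Mbnl1 KO U2 tags had 1 match. Most U1 and U2 tags, 34 and 113 for U1 and 6 and 74 for U2, thus had sequences shared among copies.

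**Figure D3:**
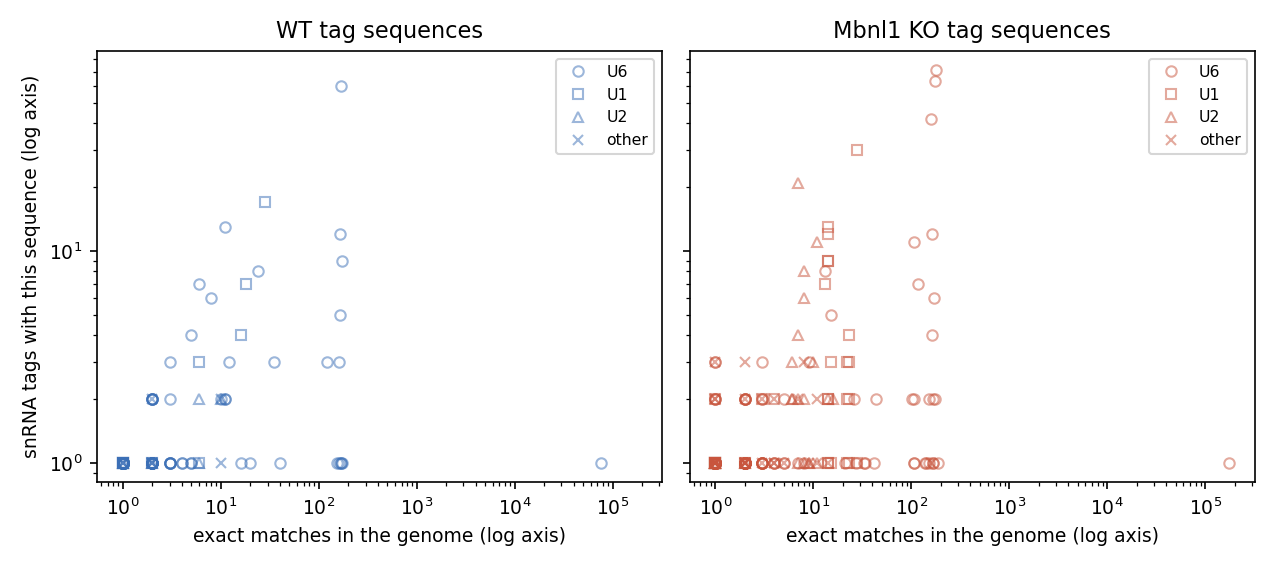
Each point is 1 distinct tag sequence at snRNA loci, placed by its number of exact genome matches (x, log axis) and the number of snRNA tags that have it (y, log axis), in WT (left) and Mbnl1 KO (right). In each table the sequence with the most tags is a U6 fragment with over 100 matches, but not the same one, with 60 tags in WT and 71 in Mbnl1 KO, and the next in WT is a U1 fragment with 17 tags and 28 matches.

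Some of the fragments listed most often are printed here because a few fragments carry many of the snRNA tags of each table. The capitals mark the same elements as above, and 1 of the places with a tag is given for each.
U6 fragment a (chr15:72085813-72085835, minus strand): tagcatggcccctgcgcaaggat
U6 fragment b (chr3:58094173-58094196, minus strand): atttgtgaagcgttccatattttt
U1 fragment c (chr9:90246839-90246863, plus strand): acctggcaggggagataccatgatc
U1 fragment d (chr12:55811426-55811457, plus strand): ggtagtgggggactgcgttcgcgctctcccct
U2 fragment e (chr11:101503154-101503184, plus strand): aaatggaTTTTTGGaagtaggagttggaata
U2 fragment f (chr11:101488844-101488867, plus strand): agtacctccaggaacggtgcaccc
Fragment a, just downstream of the ACAGAGA box of U6 from position 52 to 74, had 9 WT and 63 Mbnl1 KO tags. Fragment b, a variant of the U6 3′ end with 1 mismatch from position 84 to 107, had 13 WT tags from 2522 reads and none in Mbnl1 KO. These 2 U6 fragments thus differed in opposite directions between the tables. Fragment c, from the U1 5′ end at positions 7 to 31, was frequent in both tables, with 17 tags from 223 reads in WT and 30 from 8584 reads in Mbnl1 KO. It matched the genome at 28 places, and each of them carried a tag in 1 of the tables or both. Fragments d, e and f were found in Mbnl1 KO only, with 13, 21 and 11 tags at loci named for their type, and f had 15 tags in the whole table. Fragment e covers the U2 Sm site and had 4720 reads, d starts at the last bases of the U1 Sm site and runs downstream, and f lies at the U2 3′ end. Of the snRNA tag sequences, 18 were found in both tables, 13.0% of those in WT and 7.93% of those in Mbnl1 KO. They carried 110 WT and 175 Mbnl1 KO tags. The like share over all tags was not computed, so nothing is read from this overlap.

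Reads were concentrated even further. The 305 WT snRNA tags held 7287 reads, and 196 of them (64.3%) had 1 read. Of the 636 Mbnl1 KO tags with 39015 reads, 361 (56.8%) had 1. Over all tags, the share with 1 read was higher, 79.0% in WT and 59.5% in Mbnl1 KO. A single WT U6 tag held 3254 reads and a single tag of fragment b held 2326. In Mbnl1 KO, a single U1 tag of fragment c held 8322 reads, a U6 tag 4110 and a U2 tag of fragment e 3824. U6 took 6841 of the WT reads and 18290 of the Mbnl1 KO reads, U1 302 and 9899, and U2 35 and 7933. Scaled to the reads of each table, the ratio was 3.37 for U1, 23.3 for U2 and 0.275 for U6. The U1 value rested on 1 tag, since it was 0.537 with the most-read Mbnl1 KO tag left out and 1.56 with the most-read tag of each table left out.

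Within U6, tags lay over the middle of the RNA and left its 5′ end bare. With up to 3 mismatches, 238 of 246 WT and 377 of 388 Mbnl1 KO tags were placed on the most frequent U6 copy, which is 107 nt long. By tag midpoint, 0 of 238 WT and 0 of 377 Mbnl1 KO tags lay at positions 1 to 27, which allows up to 1.54% and 0.974%. The first position covered by any tag was 22 in both tables. This bare stretch is the 5′ stem-loop of U6, next to its cap. Positions 28 to 53, with the ACAGAGA box at 41 to 47, held 59.2% of WT tags (52.7 to 65.5) and 60.2% of Mbnl1 KO tags (55.1 to 65.2), from 52 and 89 distinct sequences. Coverage peaked at positions 45 to 49 with 164 WT tags and at position 52 with 257 Mbnl1 KO tags.

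The tables differed in the 3′ part of U6. Positions 54 to 80, downstream of the box, held 15.5% of WT tags (11.2 to 20.8) and 32.4% of Mbnl1 KO tags (27.7 to 37.3), from 18 and 36 sequences. The 3′ end from 81 to 107, which finishes in the U-rich tail, held 25.2% (19.8 to 31.2) and 7.43% (4.99 to 10.6), that is 60 WT and 28 Mbnl1 KO tags from 34 and 9 sequences. The intervals of the 2 tables did not overlap in either stretch, also seen in the plot of tags along U6. At 54 to 80 this rested on fragment a, which supplied 63 of the 122 Mbnl1 KO tags. Without it (an alternative added later, with the data known), the shares were 12.2% (8.28 to 17.2) and 18.8% (14.6 to 23.6), with overlapping intervals. At 81 to 107, leaving out fragment b gave 20.9% (15.8 to 26.8) and 7.43%, and the intervals stayed apart. They cover counting error only, and tags of the same sequence are not independent, so the spread between mice is not in them.

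**Figure D4:**
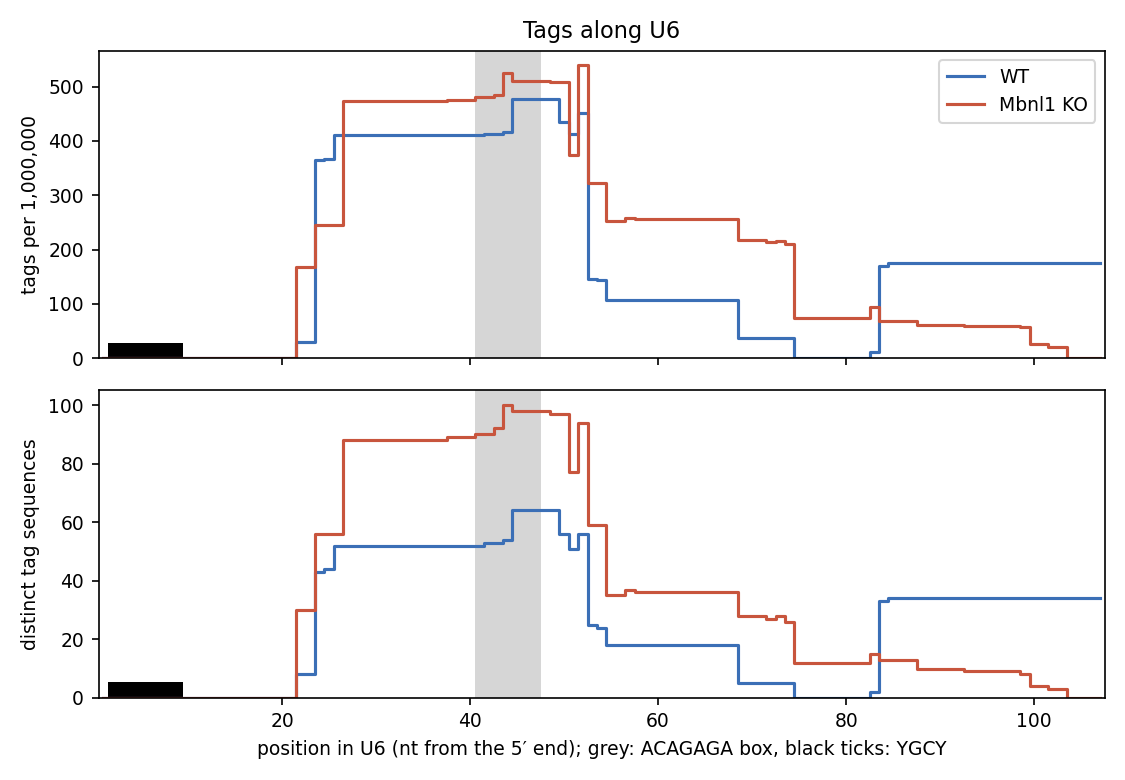
Tags per 1000000 tags of the table (top) and distinct tag sequences (bottom) over each position of U6, counted in nt from its 5′ end, in WT (blue) and Mbnl1 KO (red), with the ACAGAGA box in grey and motif matches as black ticks. Both tables start at position 22, WT peaks over the end of the box at 45 to 49 and Mbnl1 KO just past it at 52, while WT is higher near the 3′ end and Mbnl1 KO between 54 and 80.

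Within U1, tags lay at the 5′ end in both tables and took a larger share at the 3′ end in Mbnl1 KO. Of the placed tags, 21 of 34 in WT (61.8%, 43.6 to 77.8) and 52 of 124 in Mbnl1 KO (41.9%, 33.1 to 51.1) had their midpoint at positions 1 to 41. Coverage peaked at 7 to 31 in WT with 21 tags, which overlaps the end of the 5′ splice site pairing stretch at 3 to 9, and at 14 to 31 in Mbnl1 KO with 52, just downstream of it. At positions 124 to 164, with the Sm site and the last stem-loop, lay 1 of 34 WT tags (2.94%, 0.0744 to 15.3) and 48 of 124 Mbnl1 KO tags (38.7%, 30.1 to 47.9), the latter from 9 distinct sequences. Placement required a tag to lie wholly inside the RNA. With up to 5 nt past an end allowed, a choice made after the data were seen, 4 more WT tags and no Mbnl1 KO tag were placed, all at the 3′ end, and the WT share there was 5 of 38 (13.2%, 4.41 to 28.1), an interval below that of Mbnl1 KO. In the middle, positions 42 to 82 held 23.5% and 8.87%, and positions 83 to 123 held 11.8% and 10.5%. With 34 WT tags, 67 of the 164 positions had no tag, against 4 in Mbnl1 KO.

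Within U2, tags lay over the Sm site and the stretch that follows it. At positions 96 to 143 lay 6 of 7 placed WT tags and 52 of 77 placed Mbnl1 KO tags (67.5%, 55.9 to 77.8). Coverage in Mbnl1 KO peaked at positions 108 to 109 with 47 tags, just past the Sm site at 100 to 106. The 3′ end (144 to 191) held 1 and 12 tags. The 5′ part, with the branch-point pairing stretch at 33 to 38, held few: 0 WT and 4 Mbnl1 KO tags at positions 1 to 48, and 0 and 9 at 49 to 95. With 7 WT tags, a difference in position between the tables was not detectable.

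**Figure D5:**
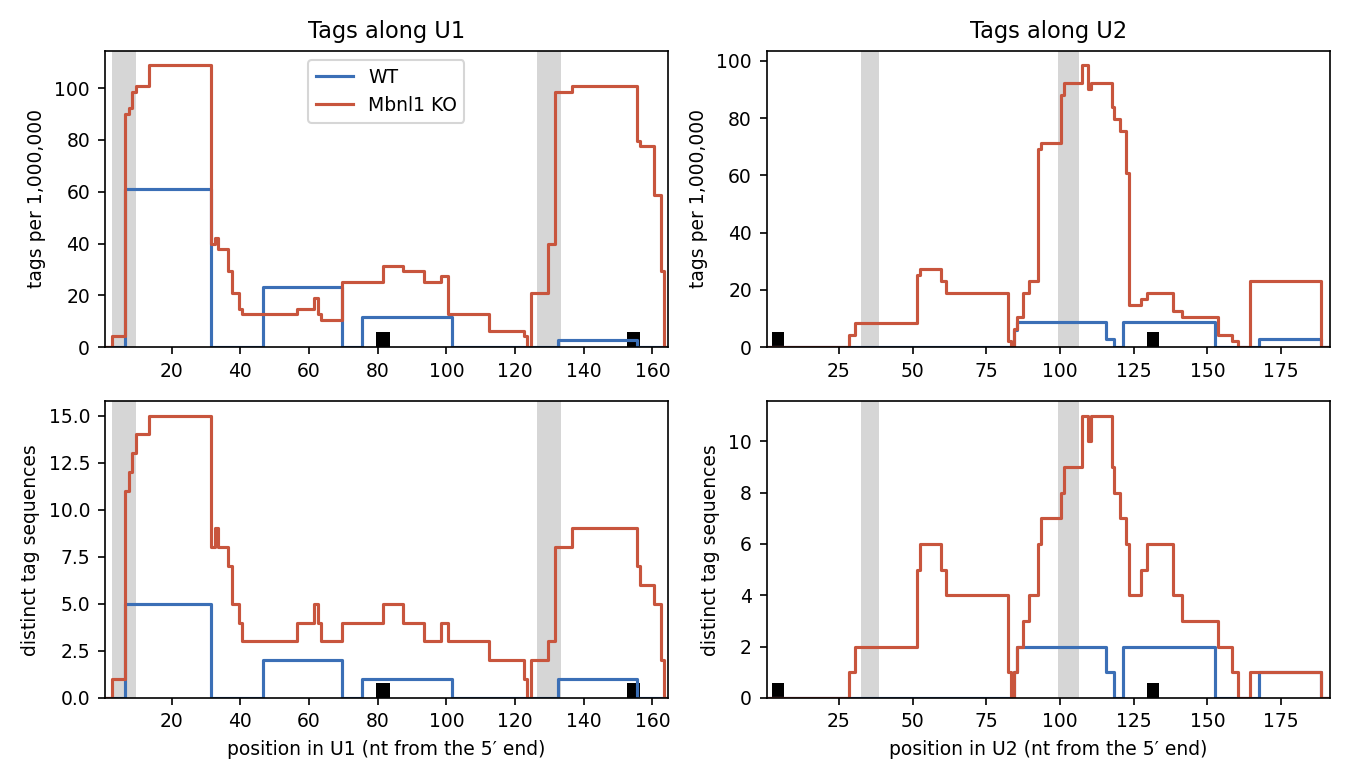
Tags per 1000000 tags of the table (top) and distinct tag sequences (bottom) over each position of U1 (left) and U2 (right), counted in nt from the 5′ end, in WT (blue) and Mbnl1 KO (red), with the pairing stretch and the Sm site in grey and motif matches as black ticks. Mbnl1 KO has peaks at both ends of U1 and just past the Sm site of U2, whereas WT has its U1 peak at the 5′ end, with 4 WT tags that run past the U1 3′ end not drawn.

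With the U types pooled, the letters of the muscleblind motif were rarer in snRNA tags than in other tags. The motif was taken as C or T, then GC, then C or T, searched on the strand of the tag only, in distinct reference sequences that were not single-base. It stood in 9 of 136 WT snRNA sequences (6.62%, 3.07 to 12.2) and 30 of 224 Mbnl1 KO snRNA sequences (13.4%, 9.22 to 18.6). Of the other sequences, 33.9% in WT and 44.5% in Mbnl1 KO held it, although their median length was shorter, 21.0 against 24.5 nt in WT and 22.0 against 29.0 nt in Mbnl1 KO. U6 supplied 112 of the 138 distinct WT snRNA sequences and 143 of the 227 in Mbnl1 KO, single-base ones included. The pooled share is thus mostly that of U6 and does not describe U1 or U2, whose shares are not given here. Sequences that differ by 1 base between copies count as separate, and the intervals treat them as independent. The snRNA loci themselves mostly hold the motif, at 77.7% of them. In U6 it stands at positions 2 to 5 and 6 to 9, inside the bare 5′ stretch. In U1 it stands at 80 to 83 and 153 to 156, and in U2 at 3 to 6 and 130 to 133. Of the fragments printed above, d holds the motif and the other 5 do not. A match describes letters, and no match says only that these letters are not in the fragment.

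Tag length differed with the class as well as the table. Tags at snRNA loci were 20 to 33 nt long, with a median of 26.0 nt in both tables. Those of exactly 31 nt made up 11.1% of snRNA tags in WT and 30.5% in Mbnl1 KO, against 42.9% and 29.8% of all tags. Restricting to tags of at least 30 nt left 38 WT and 218 Mbnl1 KO snRNA tags and moved the ratio to 5.69 (4.02 to 8.26). The part of tag length in the genotype ratios was not tested.

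The genes of the spliceosomal proteins gave a separate readout, since their tags lie on pre-mRNA or mRNA and not on snRNA. Of 53 listed genes for particle proteins and snRNA biogenesis factors, 49 were matched, with 124 WT and 298 Mbnl1 KO tags in all, and 4 had no tag. Of the 10 genes with at least 10 tags, 7 stood at least 2-fold higher in Mbnl1 KO and 0 lower, against the 39.6% and 6.95% of all genes given above. Of these 7, 5 had at most 3 WT tags and reached 10 only through the Mbnl1 KO table, which favours the count. With single-base tags left out, 3 stood higher and 1 lower.
Luc7l2, a U1-associated splicing factor, had a ratio of 2.19 from 27 WT and 82 Mbnl1 KO tags (1.4 to 3.52). Sf3b1, the U2 subunit that holds the branch-point helix, had 12 and 39, for a ratio of 2.34 (1.20 to 4.92). Snrpn, an Sm protein gene of an imprinted locus, had 13 and 25, for a ratio of 1.39 (0.683 to 2.95).
Snrnp70, which binds the first stem-loop of U1, had 2 and 13 tags, for a ratio of 4.69 (1.06 to 42.8). Sf3b3, another subunit of the U2 particle, had 1 and 12, for a ratio of 8.65 (1.28 to 370). Snapc3, a subunit of the complex that starts snRNA transcription, had 3 and 10, for a ratio of 2.40 (0.619 to 13.6). The interval lay above 1 at Luc7l2 and Sf3b1 and included 1 at Snrpn. Snrnp70, Sf3b3 and Snapc3 had 1 to 3 WT tags and entered the list through their Mbnl1 KO tags, so nothing is read from their intervals.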

How the data were processed

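Mbnl2 HITS-CLIP of quadriceps from WT and Mbnl1 KO mice was analysed as 1 merged table of 3 mice per genotype. The authors removed low-quality reads, aligned the rest to mm9 with BWA (version not given in the sources used here), discarded short sequences and collapsed potential PCR duplicates. The deposited count beside a tag is a raw number of reads that were merged into that tag. Whether the tables hold tags from both RNase concentrations is not given in the sources used here. The placement of reads that match several copies is not given in the sources used here.

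Tags were counted over mm9 GENCODE M1 genes by strand-specific overlap with scipy 1.17.1, pandas 2.3.3 and numpy 2.4.6 under Python 3.11.15. Reference sequences were read with samtools 1.23.1 and pysam 0.24.0, and plots were drawn with matplotlib 3.10.9. Tag numbers were divided by the tags of the table, for which the factor on a raw ratio is 0.721. With 1 table per genotype, no test and no p-value was computed, and a difference of 2-fold at 10 or more pooled tags was the size used for counts. Unnamed loci were assigned by shared 12-nt words. Overlap counting and intervals were tested on simulated data.

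The loci named were the 12 with the most pooled tags, every U type with a tag, and the 6 spliceosomal protein genes with the most tags. Named outside this rule, after their values were seen, were AC120136.1 and AC120136.3, the 3 arrays and the printed fragments. The members and lists were chosen with earlier results of these data known. The alternatives were other scalings, collapsing and overlap rules, tag length, single-base tags, reads and flank width. Counting each sequence once, tags with 1 genome match, leaving out the most-read tag or the most frequent fragment, and tags past the RNA end were added after the data were seen. Some sequences are not reported here.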

Additional observations from a re-analysis of the deposited data

How the results depend on the processing

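The snRNA ratio of 1.5 was 2.09 with raw tags, 5.69 with tags of at least 30 nt and 1.03 with single-base tags left out. It turned below 1 with tags of at least 2 reads (0.942) and with summed reads (0.551), and was 1.25 with each tag sequence counted once, an alternative chosen after seeing the data. The U6 ratio of 1.14 was 1.58 with raw tags, 3.11 with tags of at least 30 nt, 0.776 without single-base tags, 0.599 with tags of at least 2 reads and 0.275 with summed reads. The U1 ratio of 2.20 was 15.5 with tags of at least 30 nt, 1.5 without single-base tags and 3.37 with summed reads. The U2 ratio of 8.03 was 23.3 with summed reads and 3.49 with each sequence counted once. The U4 ratio of 1.30 was 0.373 with tags of at least 2 reads and 0.0244 with summed reads. The U12 ratio was 0 with tags of at least 30 nt, and that of loci without a U type was 36.0 with summed reads. Loci with a tag numbered 35 in WT and 97 in Mbnl1 KO with tags of at least 30 nt, and 102 and 179 with tags of at least 2 reads. The WT antisense share was 0% under both of these settings and 0.0412% with summed reads. The Mbnl1 KO antisense share was 0.0307% with summed reads and 2.58% with each sequence counted once. With flanks of 200 nt, locus over flank was 20.1 in WT and 38.4 in Mbnl1 KO. With at least 20 tags, 42.3% of genes stood at least 2-fold higher and 4.02% lower. Of the spliceosomal protein genes with at least 10 tags, 3 of 10 stood at least 2-fold higher without single-base tags (median ratio 1.55) and 3 of 6 with tags of at least 2 reads (median 2.65). The share of all genes was not computed in these settings. Further alternatives were added after seeing the data. With only tags of 1 exact genome match, the ratio was 1.11 for all loci, 0.920 for U6, 1.24 for U1, 2.88 for U2 and 0 for U12. Summed reads without the most-read tag of each table gave 35.2 for U2 and 0.407 for U6. Without the most-read Mbnl1 KO tag alone they gave 0.213 for U6, and the U1 ratio turned to 0.537. A further 121 values stayed within their interval or within 1.5 times the main count. The cause of the shifts was not tested.

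The U4 ratio could not be given for tags of at least 30 nt or wholly inside the locus, nor that of loci without a U type for tags of at least 2 reads, because WT had 0 tags there. U5, U6atac and U7 had 0 WT tags throughout. No paired analysis was possible because 3 mice per genotype share 1 table, and leaving out a replicate was not possible for the same reason. Depth limits the ratios of U2 (7 WT tags), U4 (5) and U12 (2).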
